A study of Homo sapiens with 26 samples.

Results

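The 10 genes described here, DUSP4, DUSP5, DUSP6, ETV4, ETV5, SPRED1, SPRED2, SPRY2, SPRY4 and PHLDA1, are transcribed in response to the kinase ERK, and most of their proteins act back on the pathway that activates it. They are 10 of 19775 genes with a probe-set annotated to them alone, and 28 of 54613 probe-sets belong to them. The genes were named from knowledge of the pathway with the differences between resistant and sensitive lines of these same data known, so those differences are given below as a description and without a test. Baseline expression was measured before any drug was given, on 1 Affymetrix HG-U133 Plus 2.0 array for each of 26 human B-cell cancer cell lines. The DLBCL group holds 14 lines of diffuse large B-cell lymphoma, among them MC-116, which is labelled as undifferentiated lymphoma, and the MM group holds 12 lines of multiple myeloma, among them AMO-1, which is labelled as plasmacytoma. A cell line is therefore the replicate, each line is a single culture without a technical repeat, and neighbouring values in the order of the lines cannot be told apart. Expression is given on the log2 scale of the authors' RMA normalisation, so that a difference of 1 is a doubling of the signal, and each array has its median between 5.65 and 5.71.

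In the RAS-ERK cascade a receptor loads RAS with GTP, RAS activates a RAF kinase, RAF activates MEK, and MEK phosphorylates ERK, which enters the nucleus and drives transcription. The products then limit the signal: DUSP phosphatases remove the phosphate from ERK, Sprouty and Spred proteins restrain RAS and RAF, and the ETS factors ETV4 and ETV5 carry part of the transcriptional response. The RNA of these genes is commonly read as a sign of ERK activity, and mutations that activate RAS are frequent in myeloma and less so in diffuse large B-cell lymphoma. ERK itself was not measured here.

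For each gene the probe-set with the widest standard deviation (SD) among the DLBCL lines was taken to stand for it. Of the 10 genes, 6 varied more over the 26 lines than at least 94.3% of all genes did. DUSP6 had an SD of 2.76, DUSP5 of 2.53, DUSP4 of 2.44 and ETV5 of 1.72, while SPRY4 with 0.76 and ETV4 with 1.01 varied least. The array median is used below as a mark of level and not as a call of detection. A median line had 6.5 of the 10 genes above it.

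**Figure D1:**
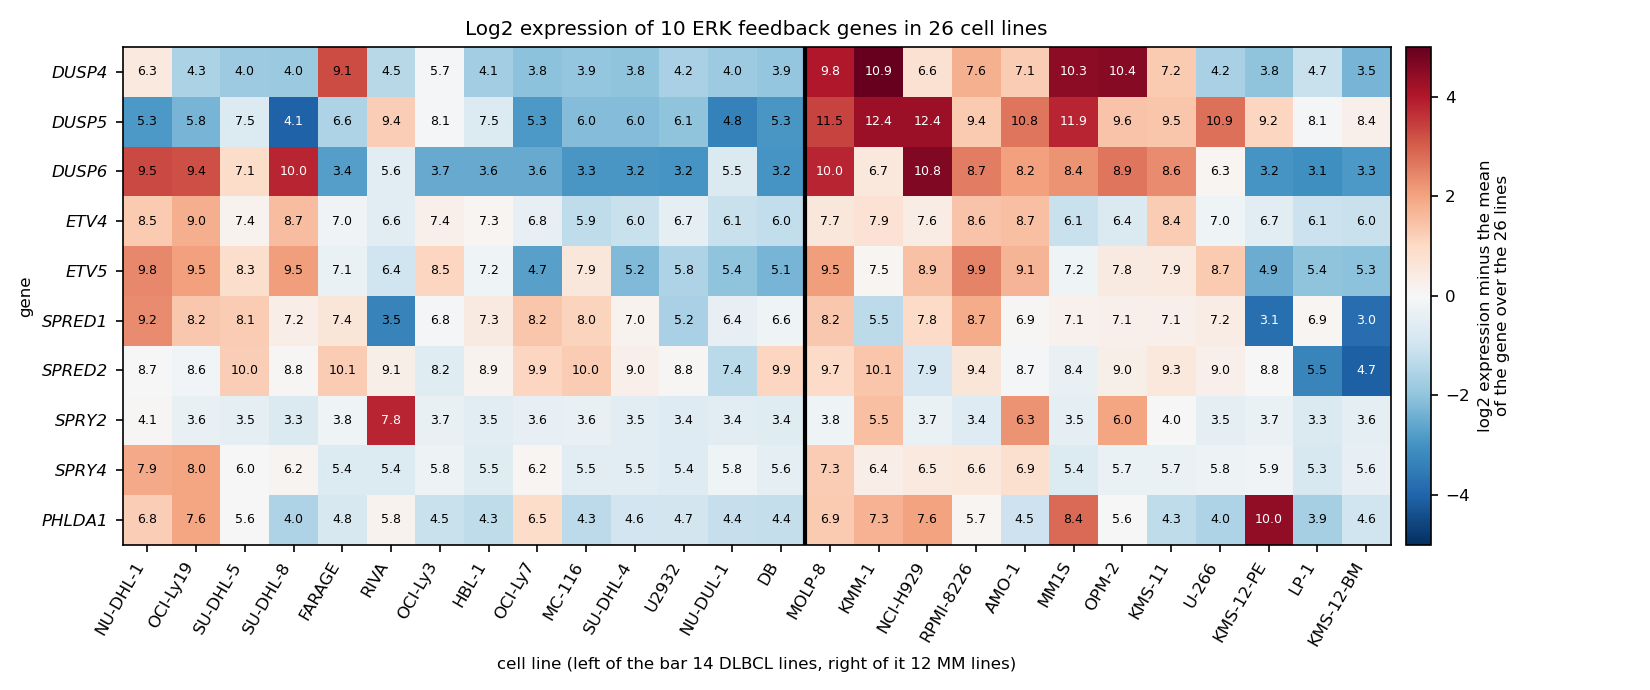
Log2 expression of the 10 genes (rows) in 14 DLBCL lines and 12 MM lines (columns, ordered in each disease by the mean of the 10 genes). Numbers are log2 values and colours the difference from the mean of the gene over the 26 lines. NU-DHL-1, OCI-Ly19 and MOLP-8 stand at the upper end, and KMS-12-BM and LP-1 at the lower end.

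The MAP kinase phosphatases gave the widest range. DUSP6, which dephosphorylates ERK in the cytoplasm, was low in most of the DLBCL lines, with a lowest value of 3.22, a median of 3.64 and a highest of 10.00. It lay between 3.22 and 3.65 in 8 of the 14 lines, at 5.47 in NU-DUL-1 and at 5.62 in RIVA. The 8 values were below the 25th percentile of the 19775 genes of the line, each by 1 probe-set. The 4 lines above their array median were SU-DHL-8 with 10.00, NU-DHL-1 with 9.48, OCI-Ly19 with 9.40 and SU-DHL-5 with 7.09. The MM lines were mostly high. DUSP6 was above the array median in 9 of 12, from 6.27 in U-266 to 10.81 in NCI-H929, and was low in LP-1 with 3.10, KMS-12-PE with 3.21 and KMS-12-BM with 3.30. The other 2 probe-sets of DUSP6 had correlations of 0.997 and 0.973 with this one over the lines.

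DUSP4, a nuclear phosphatase of ERK, had a lowest value of 3.81, a median of 4.07 and a highest of 9.10 in DLBCL. FARAGE held the highest value, and only NU-DHL-1 with 6.31 and OCI-Ly3 with 5.73 were also above their array median. FARAGE is thus a line with high DUSP4 and low DUSP6, at 3.42. In MM DUSP4 ranged from 3.53 in KMS-12-BM to 10.94 in KMM-1 around a median of 7.14, and OPM-2, MM1S and MOLP-8 followed KMM-1 with 10.40, 10.30 and 9.84. DUSP5, the other nuclear phosphatase of ERK, was above the array median in all 12 MM lines, from 8.08 in LP-1 to 12.44 in KMM-1. In DLBCL it ranged from 4.12 in SU-DHL-8 to 9.36 in RIVA. SU-DHL-8 therefore held the highest DUSP6 and the lowest DUSP5 among the DLBCL lines.

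The ETS factors followed DUSP6. ETV5 ranged from 4.69 in OCI-Ly7 to 9.81 in NU-DHL-1 among the DLBCL lines, with 9.48 in SU-DHL-8 and 9.46 in OCI-Ly19. OCI-Ly3 with 8.46 and MC-116 with 7.95 had high ETV5 beside low DUSP6, at 3.65 and 3.25. In MM, ETV5 was lowest in KMS-12-PE with 4.91, KMS-12-BM with 5.34 and LP-1 with 5.40, the lines in which DUSP6 was low, and 7.16 or more in the other 9. ETV4 was above the array median in all 26 lines and reached 9.0 in OCI-Ly19, 8.73 in SU-DHL-8 and 8.48 in NU-DHL-1. AMO-1, RPMI-8226 and KMS-11 had the highest values of the MM lines, 8.69, 8.59 and 8.44.

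The Sprouty and Spred inhibitors differed in which lines expressed them. SPRED1, which brings neurofibromin to RAS, was low in 3 lines, at 3.04 in KMS-12-BM, 3.07 in KMS-12-PE and 3.50 in RIVA, and highest in NU-DHL-1 with 9.21. SPRED2, its relative, was 7.42 or higher in every DLBCL line, and only KMS-12-BM with 4.67 and LP-1 with 5.48 lay below the array median. SPRY2 was near the floor in most lines. It was above the array median in RIVA with 7.81, AMO-1 with 6.26 and OPM-2 with 5.99, and the median was 3.56 in DLBCL and 3.66 in MM. RIVA was thus a line with high SPRY2 and low SPRED1. SPRY4, another Sprouty protein, was highest in OCI-Ly19 with 8.03, NU-DHL-1 with 7.94 and MOLP-8 with 7.35, and lay between 5.26 and 6.87 in the other lines.

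PHLDA1, a pleckstrin homology-like protein induced by growth factors, was above the array median in 4 DLBCL lines and 5 MM lines. OCI-Ly19 held the highest value in DLBCL with 7.57, and KMS-12-PE the highest of all lines with 10.01. Its 6 probe-sets do not have the same range. The widest spanned 6.11 on the log2 scale and the narrowest 1.07, with a correlation of 0.65 between them. Likewise the narrowest probe-sets of ETV5 and SPRED2 spanned 1.06 and 0.64 and had correlations of 0.50 and 0.35 with the representative of their gene.

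KMS-12-BM and KMS-12-PE are sister lines taken from the bone marrow and the pleural effusion of the same patient, so they are not independent. Both had low DUSP6, ETV5 and SPRED1. PHLDA1 was 4.56 in KMS-12-BM and 10.01 in KMS-12-PE, a difference of 5.45, and all 6 probe-sets were higher in KMS-12-PE, by 0.83 to 5.45. Of 19775 genes 51 (0.258%) differed as much between the sister lines. SPRED2 was 4.67 in KMS-12-BM and 8.79 in KMS-12-PE, a difference of 4.12, which 148 genes (0.748%) reached. Its other probe-sets gave 4.86 and 5.50, and 3.96 and 3.90, in this order of the lines. With 1 array per line these differences carry no replicate error.

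The lines with the least of these RNAs were counted next, since the question was which lines show no sign of ERK output. DB, KMS-12-BM and LP-1 had 3 of the 10 genes above the array median, the fewest. In DB they were ETV4 with 5.95, SPRED1 with 6.62 and SPRED2 with 9.86. In LP-1 they were DUSP5 with 8.08, ETV4 with 6.10 and SPRED1 with 6.94, and in KMS-12-BM DUSP5 with 8.39, ETV4 with 6.05 and SPRY4 with 5.65, which equals the array median to 2 decimals. NU-DUL-1, SU-DHL-4 and U2932 had 4. No line had all 10 genes below the median, but this count cannot decide whether any line lacks ERK output. ETV4 was above the median in all 26 lines, DUSP5 in all 12 MM lines and SPRED2 in all 14 DLBCL lines. The median is also a mark of level and not a call of detection. At the upper end MOLP-8, NCI-H929, OPM-2 and AMO-1 had 9, and NU-DHL-1, OCI-Ly19, KMM-1, KMS-11, MM1S and RPMI-8226 had 8.

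Some of these lines are well known to carry a mutation that activates RAS or RAF. The labels do not give it, so it is background here, no group was made of these lines, and nothing is said of the mutation status of the others. The RAS-mutant lines had DUSP6 values of 10.81 in NCI-H929, 9.99 in MOLP-8, 9.40 in OCI-Ly19, 8.73 in RPMI-8226, 8.42 in MM1S and 8.21 in AMO-1. U-266, whose known mutation is in RAF, had 6.27. All 7 were above their array median. By the mean of the 10 genes OCI-Ly19 ranked 2 of 14 DLBCL lines, and MOLP-8, NCI-H929, RPMI-8226, AMO-1, MM1S and U-266 ranked 1, 3, 4, 5, 6 and 9 of 12 MM lines. The members were not all high in these lines. Among the MM lines MM1S ranked 2 for PHLDA1 with 8.41 and 3 for DUSP4, yet 11 for ETV4 with 6.07 and for SPRY4 with 5.40. RPMI-8226 ranked 1 for ETV5 with 9.86 and for SPRED1 with 8.69, and 9 for DUSP5 with 9.44. High DUSP6 was also found outside this list, with 10.00 in SU-DHL-8, 9.48 in NU-DHL-1, 8.86 in OPM-2 and 8.55 in KMS-11.

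The 10 genes moved together in part. Over the 26 lines, with values centred on the mean of each disease, the median of 45 pairwise Pearson correlations was 0.28, beside 0.01 over all pairs of genes, and 9 pairs (20%) exceeded 0.5, beside 1.38% of all pairs. DUSP6, ETV4, ETV5 and SPRY4 made the tightest block, with correlations from 0.65 to 0.79 in 6 pairs, highest for DUSP6 with ETV5. SPRED1 was tied to these 4 by 0.43 to 0.62. This block was picked after the values were seen, and the points share arrays, so the correlations are a description of these lines. The 10 genes were also named with their class differences in these same lines known. Genes that share such a difference are correlated through it, so nothing is read from the contrast with all pairs. Without the 2 lines farthest from the median of DUSP6, its correlation with ETV5 was 0.74.

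The block was seen in both diseases, while the correlations of the remaining genes with DUSP6 had other values in each. Within the DLBCL lines the 6 pairs ranged from 0.63 to 0.83, and within the MM lines from 0.55 to 0.86. DUSP6 with DUSP4 gave -0.03 in DLBCL and 0.67 in MM, DUSP6 with DUSP5 gave -0.28 and 0.65, and DUSP6 with SPRED2 gave -0.28 and 0.61. SPRY4 with PHLDA1 gave 0.79 in DLBCL and 0.15 in MM. The median over all 45 pairs was 0.13 in DLBCL and 0.45 in MM. Whether the diseases differ in these correlations was not tested. In MM they include the sister lines, in which several of the genes are low, and the MM median without 1 of them was not computed. Without KMS-12-PE the median over both diseases, centred per disease, was 0.30, beside 0.28 with it. Over the 26 lines SPRY2 and PHLDA1 had the lowest correlations with the mean of the other 9 genes, 0.19 and 0.25.

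**Figure D2:**
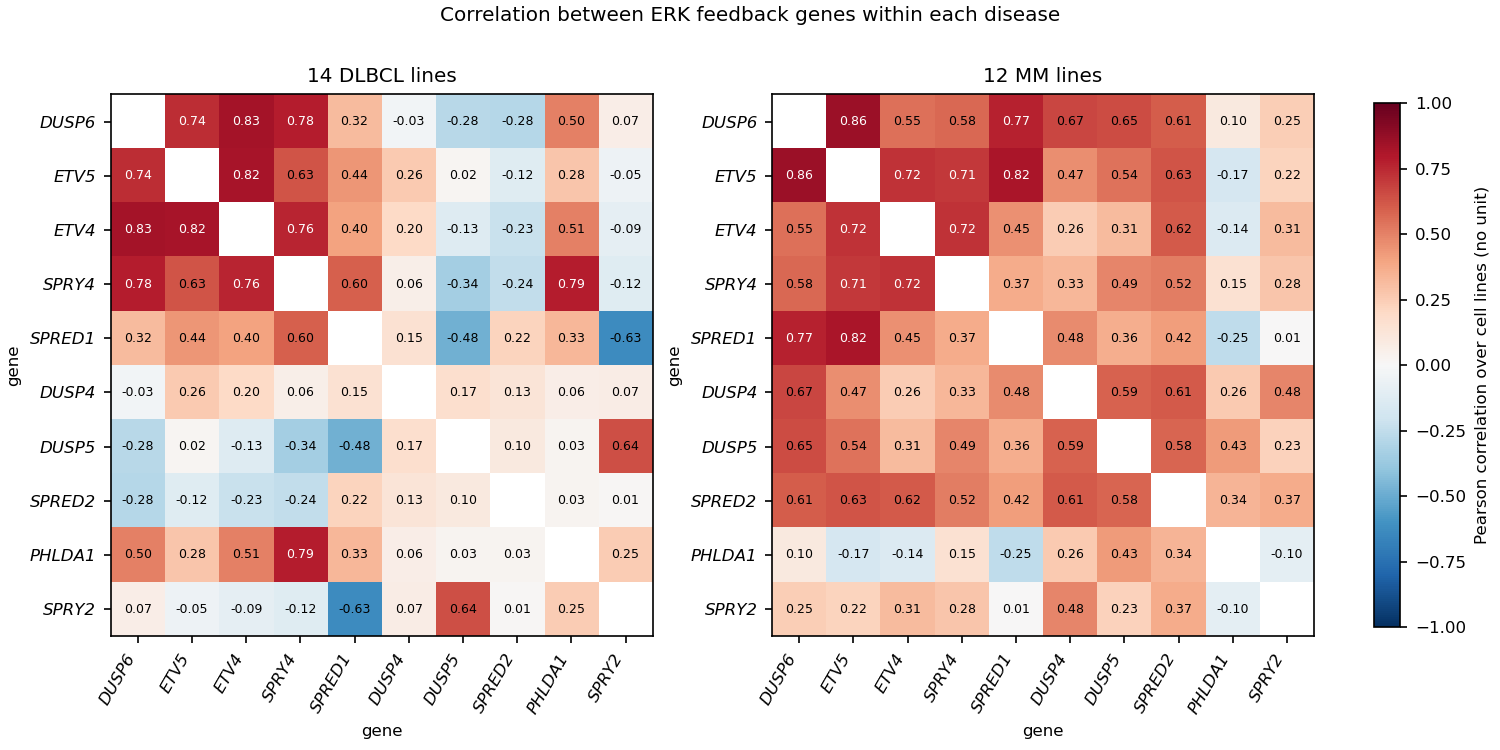
Pearson correlations between the 10 genes over 14 DLBCL lines (left) and 12 MM lines (right), with red positive and blue negative. DUSP6, ETV5, ETV4 and SPRY4 are correlated by 0.55 or more in both panels, whereas DUSP4, DUSP5 and SPRED2 have correlations of 0.61 to 0.67 with DUSP6 in the MM lines and of -0.28 to -0.03 in the DLBCL lines.

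The sequence upstream of a start site is shown for DUSP6 and SPRY4, the genes of this block with an entry in the RefSeq table used here (GRCh38.p14), for SPRED1, which was tied to the block, and for PHLDA1, which was correlated with SPRY4 in DLBCL. Of the 10 members 6 had an entry, with 9 start sites in all. Each run is the 250 bases before the start in the direction of the gene: DUSP6 at chr12:89352502-89352751 on the minus strand, PHLDA1 at chr12:76031777-76032026 on the minus strand, SPRY4 at chr5:142324248-142324497 on the minus strand and SPRED1 at chr15:38252586-38252835 on the plus strand. Capitals mark the letters CGGAAG, the core of many ETS binding sites, read on either strand.
DUSP6: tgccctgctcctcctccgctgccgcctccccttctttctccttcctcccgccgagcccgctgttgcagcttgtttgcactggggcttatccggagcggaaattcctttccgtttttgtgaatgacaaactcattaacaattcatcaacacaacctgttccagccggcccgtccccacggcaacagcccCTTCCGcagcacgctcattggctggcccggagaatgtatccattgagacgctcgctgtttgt
PHLDA1: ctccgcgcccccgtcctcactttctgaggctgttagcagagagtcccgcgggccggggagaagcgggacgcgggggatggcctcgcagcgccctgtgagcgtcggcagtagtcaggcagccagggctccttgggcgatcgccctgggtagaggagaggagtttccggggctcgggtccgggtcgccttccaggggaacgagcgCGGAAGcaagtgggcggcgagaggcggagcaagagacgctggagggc
SPRY4: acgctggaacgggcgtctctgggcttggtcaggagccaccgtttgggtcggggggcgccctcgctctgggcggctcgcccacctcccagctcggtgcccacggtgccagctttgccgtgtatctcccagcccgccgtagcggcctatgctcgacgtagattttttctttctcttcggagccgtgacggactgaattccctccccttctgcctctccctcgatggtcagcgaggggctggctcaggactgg
SPRED1: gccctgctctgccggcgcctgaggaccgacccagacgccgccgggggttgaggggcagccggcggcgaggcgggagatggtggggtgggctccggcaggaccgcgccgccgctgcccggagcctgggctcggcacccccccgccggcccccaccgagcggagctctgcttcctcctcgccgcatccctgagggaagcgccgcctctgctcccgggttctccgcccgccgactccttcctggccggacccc
DUSP6 and PHLDA1 hold 1 match each, that of DUSP6 on the opposite strand, and the windows of the other members with an entry hold none. Of all 35116 windows of the same length 16.5% hold CGGAAG. The letters TGANTCA of an AP-1 site and TGACGTCA of a cAMP response element, which share no overlap with it, were searched on both strands too and were found in none of the members' windows and in 6.57% and 1.65% of all. These matches describe the letters in these windows and say nothing on whether a factor binds there.

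Which of the 10 genes differ between the diseases was asked next. The choice of the genes does not name this contrast, but earlier results of these data were known when it was made. DUSP5 was higher in MM, with a mean of 10.36 ± 1.52 (SD, n = 12) against 6.25 ± 1.42 (SD, n = 14) in DLBCL. The difference was 4.10 on the log2 scale (standard error 0.56, limma adjusted p = 1.9e-05). The groups overlapped, since RIVA and OCI-Ly3 reached 9.36 and 8.09 while LP-1 and KMS-12-BM lay at 8.08 and 8.39. DUSP4 was higher in MM too, with 7.19 ± 2.72 (SD, n = 12) against 4.70 ± 1.47 (SD, n = 14) in DLBCL. Its difference was 2.49 (standard error 0.81, limma adjusted p = 0.0455), and its other probe-sets gave 2.16 and 1.99. The DUSP4 call is close to the threshold. It was lost without MC-116 and AMO-1, at an adjusted p = 0.0772, and leaving out single lines ended it for 19 of the 26 lines, with an adjusted p of up to 0.0815. It was kept without FARAGE, NU-DHL-1, OCI-Ly3, KMS-12-BM, KMS-12-PE, LP-1 or U-266. The difference itself stayed between 2.15 and 2.83, and DUSP5 passed without any of the 26.

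Of the 28 probe-sets 4 were called higher in MM, the 1 of DUSP5 and all 3 of DUSP4, and 0 lower, where 5.64% of all 54613 probe-sets were called higher and 5.87% lower. DUSP6 had a mean of 7.18 ± 2.69 (SD, n = 12) in MM and 5.31 ± 2.61 (SD, n = 14) in DLBCL. This difference of 1.87 (standard error 1.0) did not pass, with a limma adjusted p = 0.246. ETV5 differed by 0.51 (standard error 0.66), ETV4 by 0.18 (0.39), SPRY4 by 0.07 (0.30), SPRY2 by 0.31 (0.43) and PHLDA1 by 0.91 (0.59). SPRED1 and SPRED2 had lower means in MM, by -0.53 (0.61) and -0.72 (0.48). None of these 8 genes passed. Over the 10 genes the median difference was 0.41, beside -0.01 over all genes.

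**Figure D3:**
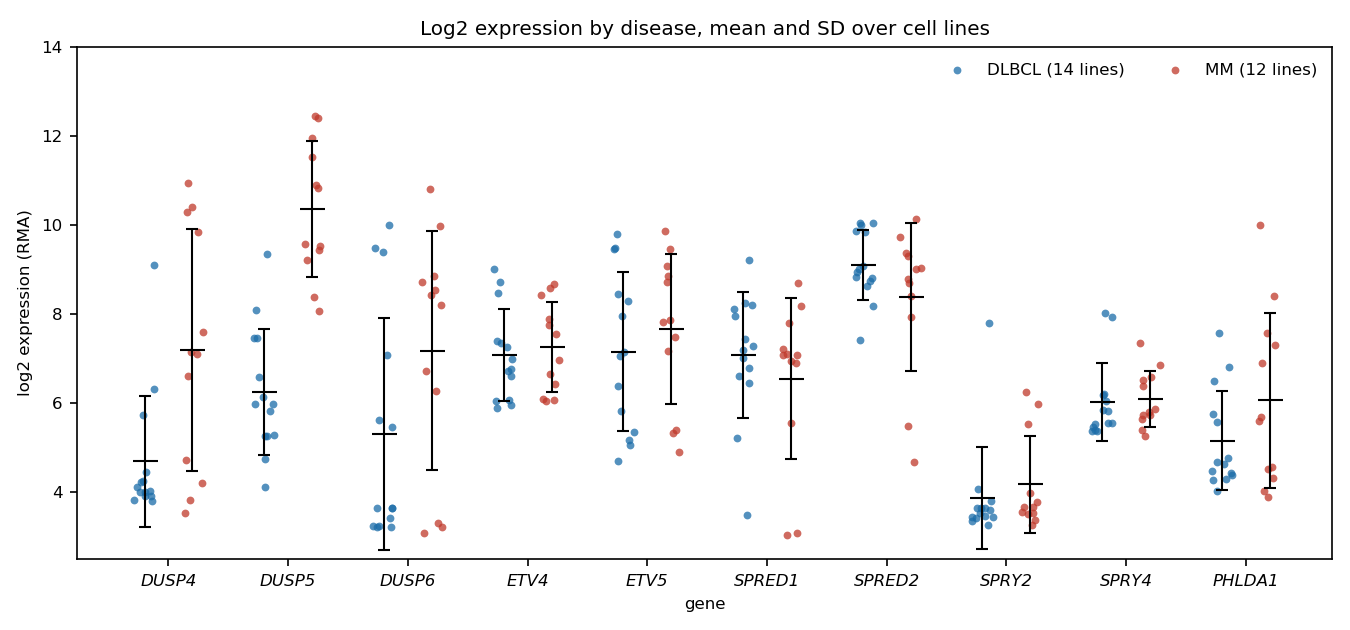
Log2 expression of the 10 genes in 14 DLBCL lines (blue) and 12 MM lines (red). Each point is a cell line, and bars give the mean and SD. DUSP5 is 8.08 or higher in every MM line, and DUSP6 is low in 8 DLBCL and 3 MM lines, with NU-DUL-1, RIVA and SU-DHL-5 between the low and the high DLBCL lines.

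The B-cell and plasma cell markers went with the labelled diseases. All 3 B-cell markers analysed (PAX5, MS4A1 and CD22) were lower in MM and all 5 plasma cell markers (PRDM1, SDC1, XBP1, IRF4 and TNFRSF17) higher, while 0 of 9 T-cell, myeloid and stromal markers passed in either direction. CD3D, CD14 and CSF1R were below the array median in all lines. CD3E was above it in 3 lines, CD2 in 2, LYZ in 2, COL1A1 in 4 and COL1A2 in 2. DCN, a stromal matrix gene, was above it in 14 of 26 lines and reached 12.05 in a DLBCL line. A contrast of the diseases does not show whether markers of other cell types are absent. SDC1, the plasma cell surface protein CD138, had a correlation of 0.62 with the mean of the 10 genes over the 26 lines centred per disease, and the other plasma cell markers had values from -0.32 to 0.23. Its part in the pattern was not tested.

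The rest of the pathway was compared by lists. Over all 19775 genes 1347 were called higher and 1065 lower in MM. Of 22 genes of the RAS-ERK cascade 16 were analysed here, and 1 was higher and 2 were lower in MM, with a median difference of -1.3e-05. SHC1, an adaptor between receptors and RAS, was higher by 1.57 (adjusted p = 2.2e-06). GRB2, the adaptor that brings SOS to the membrane, was lower by -0.84 (0.0158), as was RASGRP1, an exchange factor for RAS in lymphocytes, by -2.63 (0.0239), while RASGRP2 differed by -1.76 and did not pass (0.102). MAP2K1 and MAP2K2, which encode MEK, and MAPK3, which encodes an ERK, differed by 0.12, 0.25 and 0.16 and did not pass. Of 17 other ERK-responsive genes 1 was higher and 2 were lower, with a median of -0.01. SPRY1, a further Sprouty gene, was higher by 1.55 (0.0044). DUSP2, a phosphatase of lymphocytes, was lower by -1.71 (0.0122) and EGR3, an immediate early factor, by -1.30 (0.0193). CCND1 differed by 2.67 (0.0691) and EGR1 by -1.96 (0.125). Values in brackets are limma adjusted p values over all probe-sets.

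Of 12 receptors that signal to RAS 4 were higher and 1 was lower in MM, with a median of 0.71. Over all 19775 genes these counts were 1347 and 1065, with a median of -0.01. IL6R and IL6ST, the chains of the interleukin-6 receptor, were higher by 4.16 (adjusted p = 6.3e-05) and 4.16 (5.0e-05). IGF1R was higher by 2.04 (0.0013) and INSR by 1.70 (0.0468), and CD40 was lower by -2.21 (0.00023). Across lines of the same disease the highest correlation of these 12 with the mean of the 10 genes was 0.24, for FGFR1. Among the other ERK-responsive genes FOS with 0.52, ETV1 with 0.47, DUSP1 with 0.45 and FOSL1 with 0.45 had the highest. Outside the lists, the genes most like the mean of the 10 over 26 lines centred per disease were BRD8 (Pearson 0.69), SHCBP1 (0.67), RCBTB2 (0.66), FASTKD1 (0.66), LINC00615 (0.65), COMMD10 (0.64), MRPL57 (0.64), ANXA2R-OT1 (0.62), CFAP20 (0.62) and LINC00661 (0.62), of 19765 genes. LINC00615 lies between 3.06 and 3.55, a range of little more than the floor. The most unlike were SEMA4F (-0.75), ADCK2 (-0.75), ZNF747 (-0.75), FAM131A (-0.71) and LINC01703 (-0.70).

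AUC0, used for the response to each drug, is the area below the dose response curve where that curve is above zero. Resistant lines have a high AUC0, and lines were classed as sensitive, intermediate or resistant by tertiles within each disease. AUC0 and class were taken from the labels. OCI-Ly7 is resistant to doxorubicin in the labels and sensitive in the paper's supplement, and the labels were followed. The 3 drugs share lines, so the comparisons below are not independent of each other.

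For doxorubicin, an anthracycline, DUSP6, ETV4 and ETV5 had lower values in the resistant DLBCL lines. ETV5 was 9.81, 9.48, 9.46, 8.29 and 7.06 in the sensitive lines NU-DHL-1, SU-DHL-8, OCI-Ly19, SU-DHL-5 and FARAGE, and 6.40, 5.83, 5.19, 5.06 and 4.69 in the resistant lines RIVA, U2932, SU-DHL-4, DB and OCI-Ly7. The groups did not overlap, and the difference was -3.38 (standard error 0.54). ETV4 did not overlap either, with 6.99 to 9.0 in the sensitive and 5.95 to 6.76 in the resistant lines. This depends on the probe-set. By the other one of ETV4, resistant SU-DHL-4 (6.98) lay just above sensitive FARAGE (6.97). By further probe-sets of ETV5, RIVA lay above FARAGE, at 6.33 against 6.26 and at 5.19 against 5.11. By another RIVA lay below FARAGE, at 6.88 against 6.99. By their representative probe-sets ETV4 and ETV5 are the members with every resistant line below every sensitive one. Of all genes 0.88% were so ordered and 0.657% the other way. Nothing is read from these shares, since the members were chosen on this contrast.

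DUSP6 was 10.00, 9.48, 9.40 and 7.09 in 4 of the sensitive DLBCL lines and 3.42 in FARAGE, and 5.62 in RIVA and 3.22 to 3.64 in the other resistant lines. FARAGE alone made the groups overlap. The difference was -4.09 (standard error 1.18). SPRED1 differed by -1.91 (0.80), DUSP4 by -1.49 (0.90) and SPRY4 by -1.11 (0.50), while SPRED2 with 0.08 (0.35), DUSP5 with 0.54 (0.86) and SPRY2 with 0.66 (0.80) were not lower. In all 7 of 10 members were lower, where 47.8% of all genes were, with a median of -1.30, beside 0.01 over all genes.

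In the MM lines all 10 members had a lower mean in the lines resistant to doxorubicin, with a median of -1.21. Of all genes 42.9% had a lower mean there. DUSP6 was 10.81, 9.99, 8.42 and 8.21 in the sensitive lines NCI-H929, MOLP-8, MM1S and AMO-1, and 8.55, 6.72, 3.30 and 3.21 in the resistant lines KMS-11, KMM-1, KMS-12-BM and KMS-12-PE. The groups overlap through KMS-11, the line with the highest AUC0. The difference was -3.91 (standard error 1.29), that of SPRED1 -2.80 (0.92) and that of ETV5 -2.24 (0.80). Both low DUSP6 values belong to the sister lines. SPRED1 was 3.04 and 3.07 in these, and 5.55 in KMM-1 and 7.08 in KMS-11. The fit counts the sister lines of 1 patient as independent, so these standard errors can be too small. All 4 sensitive lines are among those with a known RAS mutation, so in MM the class and the known mutation cannot be told apart for them. KMM-1 is resistant and held the highest DUSP4 and DUSP5 of all lines. No member was free of overlap, where 2% of all genes lay lower and 2.69% higher in every resistant line. Without KMM-1 the median was -1.85 and DUSP5 was free of overlap, where 3.48% of all genes then lay lower. DUSP6 and SPRED1 were free of it without KMS-11, where 3.71% did, and ETV5 and SPRY4 without MM1S, where 3.52% did. Without KMS-12-BM 6 of 10 members were lower.

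Over all lines the order of AUC0 gave a similar picture in DLBCL and a weaker one in MM. In DLBCL 8 of 10 members had a negative Spearman rho with AUC0 of doxorubicin (n = 14, median -0.50), and ETV5 had a rho of -0.70 and a Pearson r of -0.67, with r of -0.68 without the 2 lines farthest from the median AUC0. Its slope was -2.30 per 100 units of AUC0 (standard error 0.69). In MM 7 of 10 were negative (n = 12, median -0.23), where the class means of all 10 had been lower. The rho was 0 for ETV4, 0.21 for SPRED2 and 0.26 for SPRY2. ETV5 had a rho of -0.46 and an r of -0.40 there, and an r of -0.52 without MOLP-8 and MM1S. Without the same lines the r of DUSP6 went from -0.47 to -0.37, that of DUSP5 from -0.46 to -0.21 and that of DUSP4 from -0.37 to 0.04. With all 12 MM lines the rho of DUSP6, DUSP5 and DUSP4 was -0.38, -0.31 and -0.16. The median rho over the members went from -0.23 to -0.17 in MM, and from -0.50 to -0.40 in DLBCL without FARAGE and OCI-Ly19. The intermediate DLBCL lines had ETV5 values of 5.36 to 8.46 and DUSP6 values of 3.25 to 5.47, and for DUSP6 none of them reached the level of the sensitive lines other than FARAGE. These correlations rest on the same lines as the class differences.

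**Figure D4:**
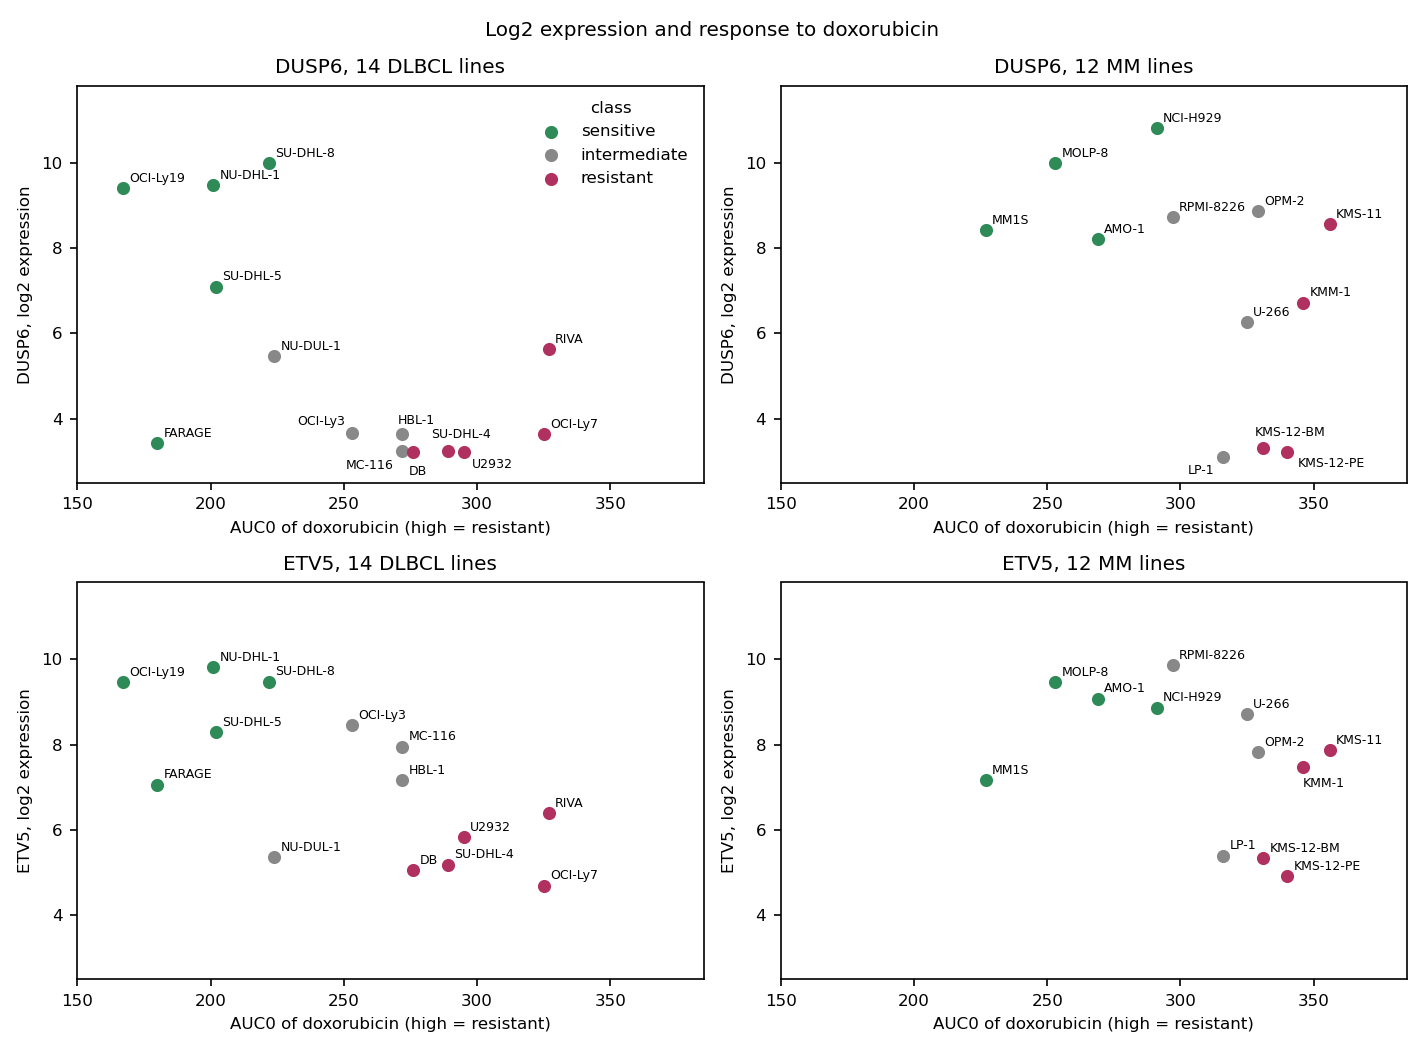
Log2 expression of DUSP6 (top) and ETV5 (bottom) against AUC0 of doxorubicin in 14 DLBCL lines (left) and 12 MM lines (right). Each point is a cell line coloured by class. FARAGE is sensitive at an AUC0 of 180 with DUSP6 at 3.42, and KMS-11 is resistant at 356 with DUSP6 at 8.55.

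For cyclophosphamide, tested as mafosfamide, 6 of 10 members were lower in the resistant DLBCL lines, with a median of -1.18. Of all genes 48.4% were lower. SPRY4 was 8.03, 7.94, 6.04 and 5.85 in the sensitive lines OCI-Ly19, NU-DHL-1, SU-DHL-5 and NU-DUL-1 and 5.37 to 5.57 in the resistant lines, which did not overlap, and differed by -1.53 (standard error 0.53). DUSP6 was 9.48, 9.40, 7.09 and 5.47 in the sensitive and 5.62, 3.42, 3.23 and 3.22 in the resistant lines, where RIVA overlapped with NU-DUL-1, and differed by -3.99 (1.0). SPRY4 was the only member free of overlap, where 1.13% of all genes lay lower and 1.37% higher in every resistant line. DUSP4, DUSP5, SPRED2 and SPRY2 had higher means in the resistant lines, by 0.77 (1.19), 1.0 (0.94), 0.76 (0.54) and 0.93 (0.96). Among the resistant lines DUSP4 was 9.10 in FARAGE and 3.92 to 4.47 in the others. SPRY2 was 7.81 in RIVA and 3.35 to 3.81 in the others. The rho with AUC0 was -0.06 for DUSP4 and -0.24 for SPRY2. Without NU-DUL-1 the members free of overlap were 5 (DUSP6, ETV4, ETV5, SPRED1 and SPRY4), where 2.71% of all genes then lay lower. Without RIVA they were DUSP6 and SPRY4, where 2.36% did, and without SU-DHL-5 SPRED2 was also higher in every resistant line, where 3.41% of all genes were. The median rho of the members with AUC0 was -0.44 (n = 12) and -0.24 without NU-DHL-1 and SU-DHL-5. The median is -0.72 without OCI-Ly19 and -0.38 with the probe-set of the highest mean for each gene.

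Among the MM lines DUSP4 was high in the lines sensitive to cyclophosphamide. It was 10.94, 10.40, 10.30 and 9.84 in the sensitive lines KMM-1, OPM-2, MM1S and MOLP-8, and 7.61, 7.11, 4.21 and 3.53 in the resistant lines RPMI-8226, AMO-1, U-266 and KMS-12-BM. These groups did not overlap and differed by -4.76 (standard error 0.93). The intermediate lines had a median DUSP4 of 5.67, close to the 5.66 of the resistant lines. Over the 12 MM lines the r with AUC0 was -0.53 for DUSP4 and -0.55 for PHLDA1. Without MM1S and AMO-1 these were -0.55 and -0.40. Of the 10 members 6 had a negative rho with AUC0. The median rho was -0.08, and -0.21 without MM1S and AMO-1. PHLDA1 differed by -2.36 (0.61) and overlapped narrowly, with 5.60 in OPM-2 and 5.68 in RPMI-8226. DUSP6 differed by -1.87 (1.25), and ETV4, ETV5 and SPRY4 by 0.54 (0.71), 0.26 (1.0) and 0.01 (0.47). In all 7 of 10 members were lower, where 47.3% of all genes were, with a median of -0.95. Of all genes 1.21% lay lower and 1.55% higher in every resistant line. Without RPMI-8226 PHLDA1 was free of overlap too, where 2.93% of all genes then lay lower, and without OPM-2 PHLDA1 and DUSP5 were, where 2.08% did. Without KMS-12-BM the median was -0.30, and with the mean of all probe-sets of a gene it was -0.59.

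Vincristine binds tubulin. In DLBCL 9 of 10 members were lower in the resistant lines, where 47.5% of all genes were, with a median of -0.40. The largest differences were those of ETV5 with -1.78 (standard error 1.05) and SPRED1 with -1.53 (0.91). DUSP6 was 9.40, 7.09, 3.42 and 3.25 in the sensitive and 10.00, 5.62, 3.64 and 3.22 in the resistant lines, a difference of -0.17 (1.89). SU-DHL-8, with 10.00, is resistant to vincristine and sensitive to doxorubicin. No member was free of overlap, where 1.19% of all genes lay lower and 1.22% higher. The median was -0.79 without MC-116, -0.71 without SU-DHL-8 and -0.23 without OCI-Ly19. SPRED1 was free of overlap without OCI-Ly7, DUSP5 without RIVA, ETV5 without SU-DHL-8 and SPRED2 without OCI-Ly19, where 2.91%, 2.12%, 2.58% and 3.11% of all genes then lay lower. Over the DLBCL lines 9 of 10 members had a negative rho with AUC0 of vincristine (n = 12), with a median of -0.38 and of -0.22 without SU-DHL-8 and DB. ETV5 had a rho of -0.48 and an r of -0.45, which became -0.79 and -0.80 without these lines. In MM again no member was free of overlap, where 1.1% of all genes lay lower and 0.834% higher. There 6 of 10 members were lower, where 53.8% of all genes were, with a median of -0.07. That median turned positive without LP-1 (0.79), OPM-2 (0.23), NCI-H929 (0.10) or KMM-1 (0.01). It was -0.33 without MOLP-8, -0.36 without U-266 and -0.13 without MM1S. Over the MM lines 4 of 10 members had a negative rho with AUC0 of vincristine (n = 12). The median rho was 0.01, and 0.16 without NCI-H929 and LP-1.

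**Figure D5:**
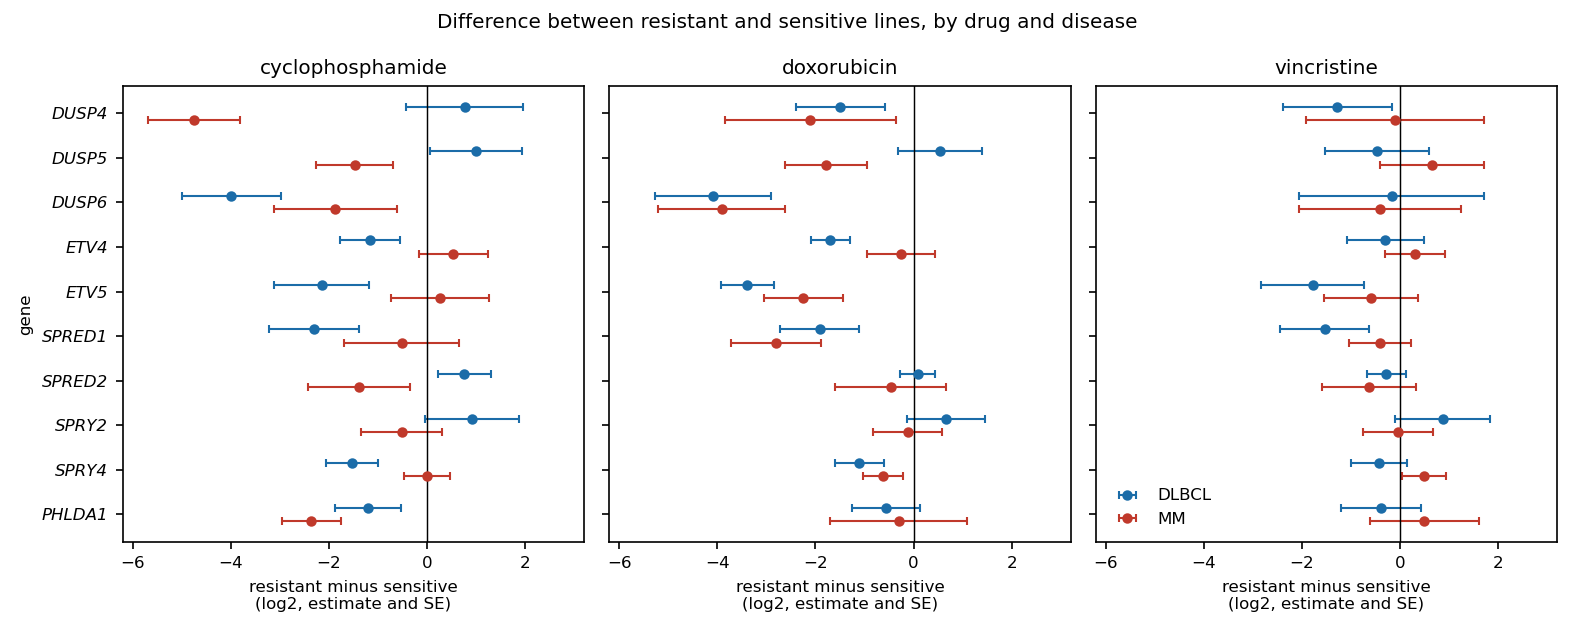
Difference in log2 expression between resistant and sensitive lines for the 10 genes, by drug (panels) and disease (blue DLBCL, red MM). Points are estimates and bars standard errors from limma. For doxorubicin DUSP6, ETV5 and SPRED1 lie left of 0 in both diseases. The bars of MM for doxorubicin count the sister lines as independent. For cyclophosphamide DUSP4 lies at -4.76 in MM and at 0.77 (standard error 1.19) in DLBCL, where FARAGE alone of the resistant lines is high.

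The class differences of the diseases were set side by side through the interaction of disease and class, fitted by limma over all probe-sets. It is built from the contrasts on which the members were chosen, so for the members it is a description and nothing is read from their counts. None of the 28 probe-sets was called for any drug, where 0.0256% of all probe-sets were called for cyclophosphamide, 0.0275% for doxorubicin and 0% for vincristine. At an unadjusted p under 0.05 the counts were 5, 0 and 0 of 28, where 4.54%, 8.91% and 3.51% of all probe-sets were under it. The largest interaction was that of DUSP4 for cyclophosphamide, at -5.53 (standard error 1.60), with class differences of -4.76 in MM and 0.77 in DLBCL. The DLBCL difference has a standard error of 1.19, and FARAGE alone of its resistant lines was high. For doxorubicin the interaction of DUSP6 was 0.17 (standard error 1.85), which does not show that the diseases are alike.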

How the data were processed

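Gene expression of 26 untreated cell lines was measured with 1 array per line. RMA had been run by the authors on the scans, and the deposited table holds its log2 values. The submitters' processing notes name affy and R 3.0.1. The method subtracts background, puts all arrays on a common distribution and merges the probes of a probe-set. A change of all RNAs of a line would therefore not be seen, and no batch or scan date is given in the labels. AUC0 values and classes are those of the labels and were not recomputed. The class that follows the doxorubicin AUC0 carries the tag of cyclophosphamide in the labels and was read as that of doxorubicin. The deposited log2 values range from 2.41 to 15.09. Precision is limited by how many arrays there are.

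The 62 control probe-sets were left out. Probe-sets were assigned by GEO's platform annotation, in which 41091 of the others have 1 symbol, 1801 several and 11721 none. MM and DLBCL lines, and the interaction of disease and class, were compared with limma 3.58.1 in R 4.3.3 on all 54613 probe-sets, with Benjamini-Hochberg adjustment and a threshold of 0.05. Differences between classes and slopes of AUC0 were estimated with limma within each disease and are given with standard errors only. Figures were drawn with matplotlib 3.10.9 and tables with pandas 2.3.3, under Python 3.11.15. limma was tested on simulated data.

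The members and gene lists were chosen with earlier results of these data known. Every member is named, with the genes of each list that passed or were among the 4 of the largest difference between the diseases, and the 10 most and 5 least correlated genes. MAP2K1, MAP2K2 and MAPK3 and the correlations of list genes were named after their values were seen. Alternatives were another probe-set per gene, dim probe-sets left out, arrays centred on their medians, another prior, MC-116 and AMO-1 or KMS-12-PE left out, and lines left out in turn, the last for MM against DLBCL being added after seeing the data.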

Additional observations from a re-analysis of the deposited data

Results flagged for a closer look

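For each member, drug and disease the sensitive and the resistant lines were searched for a line set apart from the others of its class (Dixon's ratio, groups of 4 or 5 lines). Of 120 groups 17 held such a line, where chance alone gives about 1 in 20, and the groups share lines, so the same line can be counted for several drugs. RIVA had the highest SPRY2, 7.81, among the lines resistant to each of the 3 drugs in DLBCL, and the highest DUSP6, 5.62, among those resistant to cyclophosphamide and to doxorubicin. Its DUSP5 of 9.36 stood apart among the lines resistant to doxorubicin. FARAGE stood apart with DUSP4 at 9.10 among the DLBCL lines resistant to cyclophosphamide and among those sensitive to vincristine.

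Among the DLBCL lines sensitive to cyclophosphamide NU-DHL-1 had the highest DUSP4, 6.31, and OCI-Ly7 had the highest SPRY4, 6.17, of those resistant to doxorubicin. OCI-Ly19 had the lowest SPRED2, 8.62, of those sensitive to vincristine. In MM, AMO-1 had the highest SPRY2, 6.26, among the lines resistant to cyclophosphamide and among those sensitive to doxorubicin. KMS-12-BM had the lowest SPRED2, 4.67, of those resistant to cyclophosphamide. Of the MM lines sensitive to vincristine U-266 had the lowest DUSP6, 6.27, RPMI-8226 the highest SPRED1, 8.69, and OPM-2 the highest SPRY2, 5.99.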

How the results depend on the processing

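With 1 probe-set per gene 2 of 10 genes were called between MM and DLBCL (3483 of 33297 over all), with MC-116 and AMO-1 left out 1 of 28 probe-sets, and with lines left out in turn 1 to 4. With the 75th percentile of the array as the mark a median line had 3 of 10 members above it in place of 6.5. Of 49 alternatives other than single lines left out, 46 kept the reported result within its spread or count, and these 3 did not. The 4 probe-sets of the main result also belong to 2 genes, DUSP5 and DUSP4. The spread of a median difference is the SD between lines of a class, which is a loose mark. For cyclophosphamide in DLBCL a move from -1.18 to -0.38 counted as kept, at a spread of 0.85. Interaction counts of 0 are among the 46. With single lines left out the median difference over members ranged from -1.73 to -0.72 for cyclophosphamide in DLBCL and from -1.43 to -0.30 in MM, from -1.57 to -1.05 and from -1.85 to -0.84 for doxorubicin, and from -0.79 to -0.23 and from -0.36 to 0.79 for vincristine. No member was called for the interaction (0 of 28) with any line left out, while the calls over all probe-sets ranged from 5 to 19, 1 to 30 and 0 to 8 for the 3 drugs. No paired analysis was possible because each sample is a different untreated cell line with 1 array. The cause of these changes was not tested. With 4 or 5 lines per class and drug, differences of the members can rest on single lines.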
